A study of Oreochromis niloticus with 6 samples.

Results

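Chemokine genes were described in liver RNA of male Oreochromis niloticus, the Nile tilapia, in which elovl6, the gene of a fatty acid elongase, had been knocked down. Members were taken by their product names in the deposited gene table, which held 109 chemokine and chemokine receptor genes among 29528 genes. Of these, 40 were named as ligands (C-C motif chemokines, C-X-C motif chemokines and stromal cell-derived factor 1) and 69 as receptors (C-C, C-X-C and XC chemokine receptors and atypical chemokine receptors). There were 3 libraries of livers with elovl6 knocked down by antisense RNA and 3 of livers from a negative control group labelled as wild type. All fish were male and ate a pellet diet with 5% palm oil. The labels do not state the age of the fish, how the antisense RNA was given or what the negative control received, and their treatment field names the knockdown for all 6 libraries. Livers came from 9 fish per group, and equal amounts of RNA from 3 tanks per group were pooled into the libraries. Whether the libraries of a group came from separate fish is not stated, so p-values measure only the spread between libraries, which may be technical.

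Chemokines are small secreted proteins that bind to matrix and to receptors on leukocytes, and so direct where these cells go. Most receptors signal through inhibitory G proteins, whereas atypical receptors bind chemokines without that signal and remove or store them. In liver, chemokines are known from mammals to come from hepatocytes, sinusoidal endothelium and resident macrophages, and to rise with injury and infection. Fish have expanded some chemokine families by local gene duplication, so that names taken from mammals do not always mark the direct counterpart. NCBI symbols are given where they were more than a locus number, which was the case for 24 of the 109 members.

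The totals were 14341242 to 14973737 reads in knockdown libraries and 15322360 to 17245179 in control libraries. The targeted gene elovl6 had 39.3, 36.9 and 36.6 FPKM (fragment counts scaled to gene length and library total) in knockdown libraries 1, 2 and 3, against 163, 160 and 163 in control libraries 1, 2 and 3 (log2 fold change -2.11, SE 0.05). Genes of the hepatocyte list summed to 125522 to 125954 FPKM in knockdown and 143955 to 148792 FPKM in control libraries, so the labelled tissue held its markers in both groups. The libraries of the groups differed widely. Of 11431 genes tested with edgeR, 78.2% were called at an adjusted p under 0.05, 39.2% higher and 39% lower in the knockdown. The groups did not overlap in 79.5% of the tested genes. A member count is therefore read against these shares, and a call by itself is not unusual in these libraries.

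Most of the members were barely read. No read fell on 26 of the 109 members, among them 20 receptors, and a further 61 had reads but a mean under 1 FPKM over the 6 libraries. The test took the remaining 22 members, 13 ligands and 9 receptors. Of these 22, 7 had a control mean under 1 FPKM and so passed only through the knockdown libraries. Such genes had to differ, and the counts below describe the tested members without serving as evidence about all 109.

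Among ligands, all 13 tested genes were called, 11 higher and 2 lower in the knockdown, with a median log2 fold change of 2.0 beside -0.01 over all genes tested. Among receptors, 6 of 9 tested genes were called, 5 higher and 1 lower, with a median of 1.32. The share called was 78.2% over all genes, and 39.2% were called higher and 39% lower. The groups did not overlap in 13 of 13 ligands and 6 of 9 receptors, 16 of them higher in the knockdown and 3 lower, beside 39.9% and 39.6% of all tested genes. DESeq2 also called 13 ligand and 6 receptor genes, beside 76.8% of all genes (38.6% higher, 38.2% lower), as did limma on log2(FPKM + 1), beside 77.7% (39.1% higher, 38.6% lower). Without a filter on low values 18 of 34 ligand genes with reads (15 higher, 3 lower) and 18 of 49 receptor genes (12 higher, 6 lower) were called, beside 52.4% of all genes (26.5% higher, 25.9% lower). With the filter that edgeR proposes, 14 ligand genes (11 higher, 3 lower) and 12 of 23 receptor genes (9 higher, 3 lower) were called, beside 72.8% (36.8% higher, 36% lower). Summed over all 40 ligand genes, with no filter, the libraries held 179, 173 and 169 CPM (counts scaled to the library total) in knockdown livers 1, 2 and 3, against 59.8, 64.7 and 58.7 in control livers 1, 2 and 3. That was 2.84 times as many in the knockdown, and the groups did not overlap. Without the most read ligand gene, ccl20b, the sum was still 2.66 times as high. Of 13 tested pan-leukocyte markers 11 were higher and none lower, and that list summed to 317 to 325 FPKM in knockdown and 164 to 176 FPKM in control libraries. Its part in the chemokine sums was not tested. In bulk RNA, more cells of a type and more RNA per cell cannot be told apart.

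**Figure D1:**
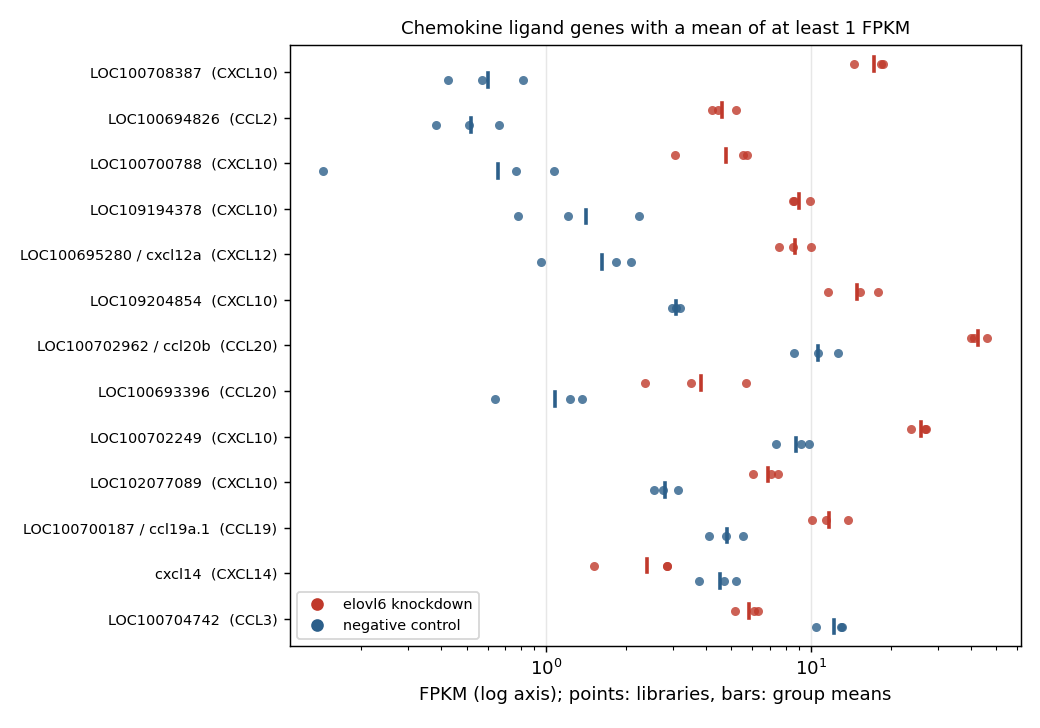
FPKM of the 13 tested ligand genes in each library (log axis), knockdown in red above control in blue, with points for libraries and bars for the means of 3 libraries. The 3 red points lie right of the 3 blue points in 11 genes and left of them in cxcl14 and LOC100704742.

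The widest change among tested ligands was in a gene named for C-X-C motif chemokine 10. In mammals CXCL10 is induced by interferons and calls T and NK cells through the receptor CXCR3. The file gives that name to 10 tilapia genes, of which 6 were tested. All 6 were higher in the knockdown, beside 39.2% of all tested genes. However, 2 of the 6, LOC100708387 and LOC100700788, had a control mean under 1 FPKM and passed the filter only through the knockdown. LOC100708387, on linkage group 2 from 25744365 to 25745482, had 18.7, 18.4 and 14.6 FPKM in knockdown libraries 1, 2 and 3, against 0.425, 0.573 and 0.815 in control libraries 1, 2 and 3. Of the 13 tested ligands it was the third highest in the knockdown and the twelfth in the control, and was 27.6-fold higher in the knockdown (log2 fold change 4.79 with an SE of 0.34, edgeR adjusted p = 2.08e-12). The neighbour LOC109204854, from 25739139 to 25740426, had 17.8, 15.3 and 11.6 FPKM in knockdown and 3.19, 3.10 and 2.99 FPKM in control libraries (log2 fold change 2.26, SE 0.23). LOC109194378, from 25760234 to 25762190, had 8.65, 9.86 and 8.54 FPKM in knockdown and 2.23, 1.21 and 0.782 FPKM in control libraries (log2 fold change 2.67, SE 0.27). These 3 genes lie side by side on the plus strand, and counting could have split reads among them. Summed, the trio had 517, 511 and 432 reads in knockdown and 95, 66 and 65 in control libraries, a ratio per library total of 7.26 (95% exact binomial interval 6.31 to 8.39, counting error only).

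The other 3 tested CXCL10-named genes lie elsewhere. LOC100702249, on linkage group 13 from 19235452 to 19236854, was the most abundant of the 6, with 26.9, 23.8 and 27.1 FPKM in knockdown and 7.39, 9.78 and 9.18 FPKM in control libraries (log2 fold change 1.56, SE 0.14). It overlaps rassf4 on the opposite strand, which had 184 reads in knockdown and 44 in control libraries. LOC102077089, on linkage group 12 from 33422730 to 33427268, had 6.01, 7.06 and 7.49 FPKM in knockdown and 2.76, 3.13 and 2.54 FPKM in control libraries (log2 fold change 1.28, SE 0.14). The short gene LOC100700788, also on linkage group 12 from 3725216 to 3725969, had 3.06, 5.53 and 5.74 FPKM in knockdown and 1.06, 0.144 and 0.766 FPKM in control libraries. It rested on few reads, 20, 36 and 39 in knockdown and 8, 1 and 6 in control libraries. Its log2 fold change of 2.80 (SE 0.55) ranged from 2.35 to 3.30 with a library left out. Groups did not overlap in any of these 3 genes. The 10 genes of this name together had 80.1 to 82.6 CPM in knockdown and 20.6 to 22.9 in control libraries, 3.73 times as many in the knockdown.

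Stromal cell-derived factor 1, or CXCL12, keeps leukocytes and blood precursors in place through CXCR4. Its gene copies differed in opposite directions. LOC100695280, which NCBI calls cxcl12a, had 9.97, 7.53 and 8.54 FPKM in knockdown libraries 1, 2 and 3, against 1.83, 2.09 and 0.958 in control libraries 1, 2 and 3, a 5.34-fold rise (log2 fold change 2.42 with an SE of 0.22, edgeR adjusted p = 3.27e-10). The copy LOC100709445, or cxcl12b, was below the filter with 10, 5 and 11 reads in knockdown and 42, 41 and 47 in control libraries. Per library total it had 4.45 times fewer reads in the knockdown (95% interval 2.90 to 7.06). The log2 ratio of cxcl12a to cxcl12b in FPKM averaged 5.83 ± 0.455 in knockdown and 1.11 ± 0.633 in control libraries (SD, n = 3 each, exact permutation p = 0.1, 2-sided, which is the lowest value that this design can reach). The adjusted p over the 4 copy pairs compared was 0.2.

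The other C-X-C ligand, cxcl14, fell. In mammals it is made constantly by healthy epithelia and is often lost in inflammation. The gene had 2.85, 2.85 and 1.51 FPKM in knockdown and 3.78, 4.67 and 5.18 FPKM in control libraries (log2 fold change -0.93 with an SE of 0.24, edgeR adjusted p = 0.0012). Groups were apart by a small gap, and the log2 fold change ranged from -1.07 to -0.68 with a library left out.

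Among C-C ligands, the genes named for CCL20, CCL19 and CCL2 rose and 1 named for CCL3 fell. CCL20 attracts cells that carry CCR6, such as some T cells and immature dendritic cells. Its gene ccl20b (LOC100702962), on linkage group 9 from 11725643 to 11727309, was the highest ligand gene in the knockdown, with 41.4, 40.2 and 46.2 FPKM, against 12.6, 10.6 and 8.62 in control libraries (3.99-fold higher, log2 fold change 2.0 with an SE of 0.13, edgeR adjusted p = 8.39e-13). A second gene of that name, LOC100693396, had 3.52, 5.66 and 2.36 FPKM in knockdown and 0.640, 1.23 and 1.36 FPKM in control libraries (log2 fold change 1.82, SE 0.42). The other 6 genes of the name were below the filter. In all 8 together, knockdown libraries had 35.3 to 37.5 and control libraries 8.06 to 10.5 CPM.

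CCL19 guides dendritic and T cells within lymphoid tissue through CCR7. Its gene ccl19a.1 (LOC100700187) had 13.7, 11.4 and 10.1 FPKM in knockdown and 4.12, 5.55 and 4.78 FPKM in control libraries (2.43-fold higher, log2 fold change 1.28 with an SE of 0.18, edgeR adjusted p = 7.49e-07). CCL2 calls monocytes in mammals. The gene of that name, LOC100694826 on linkage group 1 from 38341249 to 38345189, had 5.18, 4.46 and 4.21 FPKM in knockdown and 0.383, 0.512 and 0.664 FPKM in control libraries (8.79-fold higher, log2 fold change 3.14 with an SE of 0.22, edgeR adjusted p = 1.87e-12). Its control mean of 0.519 FPKM was under 1 FPKM, so it passed the filter only through the knockdown. It overlaps a gene named for GABARAPL2 on the opposite strand, LOC100694559, which had 1294 reads in knockdown and 1202 in control libraries. The strand setting of the counting is not given, so whether reads of such a pair were told apart is not known.

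CCL3 is a chemokine of macrophages and T cells. LOC100704742, on linkage group 3 from 4697137 to 4698163, was the highest ligand gene of the control livers and the ninth of 13 in the knockdown. It had 6.27, 6.06 and 5.16 FPKM in knockdown and 13.04, 12.93 and 10.46 FPKM in control libraries (2.09-fold lower, log2 fold change -1.06 with an SE of 0.23, edgeR adjusted p = 0.000195). The other 5 genes named for CCL3, and those named for CCL4, CCL5, CCL8, CCL17 and CCL26, were below the filter, and the 4 named for CCL18 had no read. Among them LOC100691779, a CCL3-named gene singled out after its values were seen, had 4, 13 and 30 reads in knockdown and 0, 3 and 8 in control libraries (ratio 4.80, 95% interval 2.46 to 10.3). It thus had more reads in the knockdown, although the groups overlapped, and with no filter it was called higher (edgeR adjusted p = 0.020). Of the 40 ligand genes, 6 had reads in the knockdown alone and 3 in the control alone, each with 12 reads or fewer.

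Atypical receptors held most receptor reads. All 69 receptor genes had 310 to 325 CPM in knockdown and 299 to 305 in control libraries, 1.04 times as many in the knockdown. The 4 atypical receptor genes made up most of this, with 242 to 264 CPM in knockdown and 266 to 273 in control libraries. The 65 other receptor genes had 60.9, 60.7 and 68.9 CPM in knockdown libraries 1, 2 and 3, against 30.3, 32.1 and 33.1 in control libraries 1, 2 and 3, 1.99 times as many in the knockdown.

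**Figure D2:**
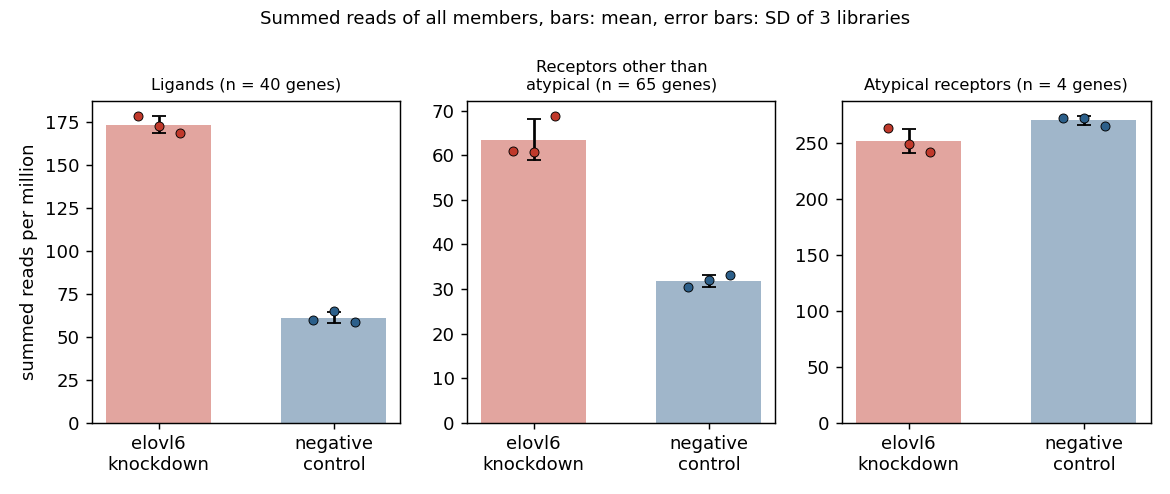
Summed level, in CPM (y axis), of the 40 ligand genes, the 65 receptor genes that are not atypical and the 4 atypical receptor genes, with bars for the mean, error bars for the SD of 3 libraries and a point for each library. The y axes differ between panels and start at 0. Ligands and ordinary receptors were higher in every knockdown library, and atypical receptors were slightly lower.

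The largest change among the 9 tested receptors was in a copy of atypical chemokine receptor 4. In mammals this receptor takes up CCL19, CCL21 and CCL25. The copy ackr4 (ackr4b at NCBI), on linkage group 9 from 17208989 to 17214756, had 12.9, 10.7 and 8.91 FPKM in knockdown libraries 1, 2 and 3, against 0.476, 0.647 and 0.643 in control libraries 1, 2 and 3 (18.2-fold higher, log2 fold change 4.19 with an SE of 0.17, edgeR adjusted p = 3.33e-17). It ranked second of the 9 tested receptors in the knockdown and eighth in the control. Its control mean of 0.589 FPKM was under 1 FPKM, so it passed the filter only through the knockdown. The gene overlaps acad11 on the opposite strand, which had 3038 reads in knockdown and 4083 in control libraries. Whether reads of this pair were told apart is not known either.

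The second copy, LOC100699932 (ackr4a), on linkage group 18 from 22474344 to 22483500, was the most read member of all and went the other way. It had 52.4, 49.9 and 50.1 FPKM in knockdown and 65.8, 65.7 and 64.0 FPKM in control libraries (1.29-fold lower, log2 fold change -0.37 with an SE of 0.05, edgeR adjusted p = 7.63e-08). Groups did not overlap, although the difference was small. This gene took 57.9% ± 0.0621 of all receptor reads in knockdown and 77.5% ± 0.512 in control libraries (SD, n = 3 each). The log2 ratio of ackr4a to ackr4b in FPKM was 2.03, 2.23 and 2.49 in knockdown and 7.11, 6.67 and 6.64 in control libraries (exact permutation p = 0.1, 2-sided, adjusted p = 0.2 over the 4 pairs).

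Atypical chemokine receptor 3 clears CXCL12. Its copy ackr3a (LOC100708828) had 9.49, 10.6 and 9.16 FPKM in knockdown and 10.0, 11.3 and 10.8 FPKM in control libraries, overlapping groups with no call (log2 fold change -0.14 with an SE of 0.10, edgeR adjusted p = 0.182). With no filter on low values or with the filter that edgeR proposes it was called lower (log2 fold changes -0.24 and -0.22, adjusted p = 0.0446 and 0.0447). The copy ackr3b (LOC100703676) had 1.36, 0.982 and 1.65 FPKM in knockdown and 1.73, 0.738 and 0.889 FPKM in control libraries (log2 fold change 0.24 with an SE of 0.30, edgeR adjusted p = 0.472). Its groups overlapped through control library 1, without which the log2 fold change was 0.71 (adjusted p = 0.0496). The log2 ratio of ackr3a to ackr3b averaged 2.90 ± 0.484 in knockdown and 3.36 ± 0.733 in control libraries (SD, n = 3 each, exact permutation p = 0.4, 2-sided, adjusted p = 0.533 over the 4 pairs).

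**Figure D3:**
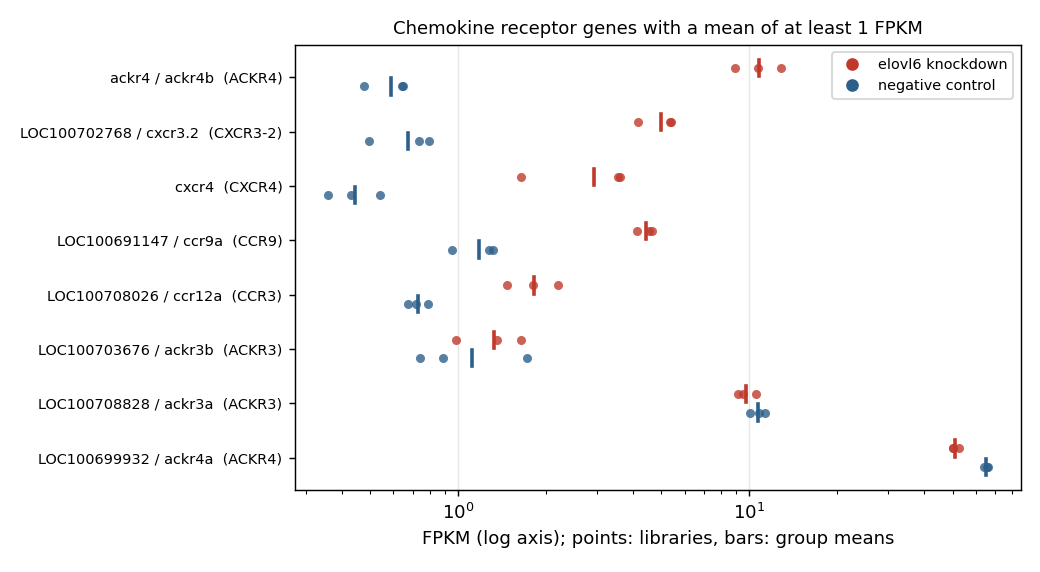
FPKM of 8 tested receptor genes in each library (log axis), knockdown in red above control in blue, with points for libraries and bars for the means of 3 libraries. The groups are apart in 6 genes, and ackr4b, cxcr3.2 and cxcr4 have the group means farthest apart on the log axis, whereas ackr3a and ackr3b overlap.

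Of the receptors that are not atypical, 4 of the 5 tested genes were higher in the knockdown, beside 39.2% of all tested genes. However, 3 of the 5, cxcr3.2, cxcr4 and LOC100708026, had a control mean under 1 FPKM and passed the filter only through the knockdown. CXCR3 is the receptor for CXCL10. Its gene cxcr3.2 (LOC100702768), on linkage group 11 from 25013070 to 25014896, had 4.15, 5.39 and 5.37 FPKM in knockdown and 0.736, 0.794 and 0.494 FPKM in control libraries (7.32-fold higher, log2 fold change 2.87 with an SE of 0.29, edgeR adjusted p = 2.82e-09). CXCR4, the receptor for CXCL12, is widespread on leukocytes. The gene cxcr4 had 1.64, 3.56 and 3.59 FPKM in knockdown and 0.431, 0.358 and 0.541 FPKM in control libraries (6.50-fold higher, log2 fold change 2.70 with an SE of 0.38, edgeR adjusted p = 6.32e-07). Knockdown library 1 was well under the other two, yet above every control library. A second gene described as CXCR4, LOC100693032, had 1 read in knockdown and 4 in control libraries.

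CCR9 binds CCL25 and marks lymphocytes bound for the gut in mammals. Its gene ccr9a (LOC100691147) had 4.62, 4.11 and 4.54 FPKM in knockdown and 1.32, 1.28 and 0.955 FPKM in control libraries (3.72-fold higher, log2 fold change 1.89 with an SE of 0.25, edgeR adjusted p = 1.94e-07). The weakly read copy ccr9b (LOC100695800) had 9, 21 and 12 reads in knockdown and 3, 2 and 6 in control libraries. The ratio between these copies did not separate the groups (exact permutation p = 0.8, 2-sided, adjusted p = 0.8 over the 4 pairs). LOC100708026, described as CCR3 and called ccr12a at NCBI, had 1.81, 1.47 and 2.20 FPKM in knockdown and 0.716, 0.673 and 0.792 FPKM in control libraries (log2 fold change 1.32, SE 0.25).

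**Figure D4:**
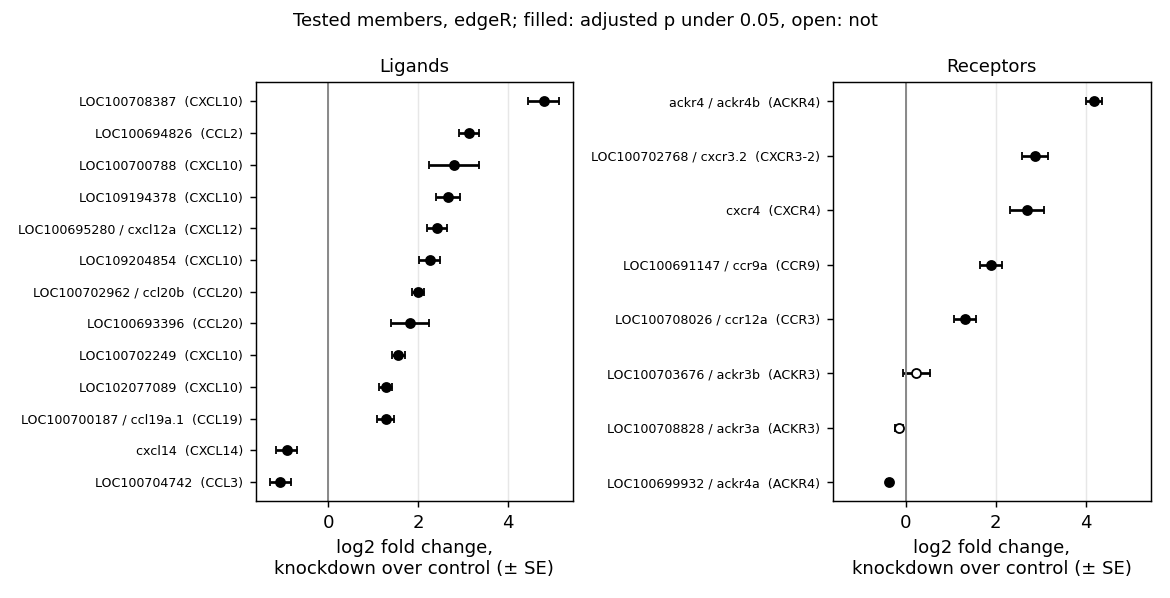
Log2 fold changes of 21 tested members, knockdown over control, with bars for the SE; filled points passed an adjusted p under 0.05 by edgeR and open points did not. Ligands run from LOC100708387 at 4.79 to LOC100704742 at -1.06, and receptors from ackr4b at 4.19 to ackr4a at -0.37.

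Below the filter, 10 members had at least 100 reads over the 6 libraries, and copies of 1 family could differ in opposite directions. CXCR2 is the receptor of neutrophils for CXCL8. LOC109196745, a CXCR2-like gene on linkage group 23, had 43, 36 and 56 reads in knockdown and 1, 0 and 2 in control libraries (ratio 50.6, 95% interval 16.9 to 248). The gene LOC112843776, another CXCR2-like gene of that linkage group chosen after its values were seen, had 1, 0 and 4 reads in knockdown and 12, 14 and 11 in control libraries. On linkage group 16, the CXCR2 gene LOC100707345 had 47, 39 and 28 reads in knockdown and 56, 62 and 81 in control libraries (1.55 times fewer, 95% interval 1.23 to 1.97). Another CXCR2 gene of linkage group 16, LOC100704146 (cxcr2 at NCBI), was chosen after its values were seen. It had no read in the knockdown and 5, 15 and 2 in control libraries. All 7 genes described as CXCR2 together had 5.30 to 6.33 CPM in knockdown and 4.65 to 5.94 in control libraries, and these ranges overlapped.

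The CCR2-named genes lie in a block of 10 on linkage group 11 from 10155410 to 10277986, and 6 of them had no read. CCR2 is the receptor of monocytes for CCL2. LOC100702889 had 35, 39 and 37 reads in knockdown and 6, 0 and 4 in control libraries (ratio 12.5, 95% interval 6.54 to 26.7). Another gene of the block, LOC109194551, chosen after its values were seen, had no read in the knockdown and 4, 3 and 13 in control libraries (at least 4.39-fold lower by the 95% interval). The block as a whole had 43, 47 and 41 reads in knockdown and 12, 9 and 25 in control libraries, a ratio of 3.20 (95% interval 2.27 to 4.58). LOC100702889 alone held 111 of the 131 knockdown reads of the block and 10 of its 46 control reads.

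Genes named for CXCR3 and XCR1 also lie in rows. A row of 8 CXCR3-named genes follows cxcr3.2 on linkage group 11. In it LOC100702230 had 36, 25 and 23 reads in knockdown and 4, 17 and 4 in control libraries (ratio 3.78, 95% interval 2.39 to 6.16). LOC109204162 had 13, 10 and 21 in knockdown and 31, 15 and 40 in control libraries (1.74 times fewer, 95% interval 1.195 to 2.56, counting error only). The groups overlapped in LOC109204162, and with no filter it was not called (edgeR adjusted p = 0.118). In the same fit LOC100702230 was called higher (edgeR adjusted p = 0.0032). Summed, the row had 157 reads in knockdown and 122 in control libraries (ratio 1.45, 95% interval 1.13 to 1.85). XCR1 is carried in mammals by dendritic cells that present antigen to CD8 T cells. All 16 genes of that name were below the filter, 13 of them in a row on linkage group 18 from 20806453 to 21016512. That row had 72, 68 and 84 reads in knockdown and 31, 42 and 30 in control libraries (ratio 2.44, 95% interval 1.93 to 3.12). Within it LOC102083335 had 27, 37 and 21 reads in knockdown and 0, 1 and 0 in control libraries (ratio 95.6, 95% interval 16.7 to 3818). LOC109195630 had none in knockdown and 3, 1 and 6 in control libraries, and with no filter it was not called (edgeR adjusted p = 0.0657). Both LOC102083335 and LOC109195630 were chosen after their values were seen. Reads may have been shared out between near copies, so single genes of these rows are uncertain and their sums are less affected by such sharing. However, LOC102083335 alone held 85 of the 224 knockdown reads of the XCR1 row and 1 of its 103 control reads.

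In 3 receptor genes known from lymphocytes, the groups overlapped. CCR7, the receptor for CCL19, had 21, 0 and 18 reads in knockdown and 32, 14 and 23 in control libraries (ratio 0.635, 95% interval 0.418 to 0.954, which leaves out the spread between libraries). The CCR6 gene ccr6a (LOC100694868), whose mammalian counterpart binds CCL20, had 28, 22 and 27 reads in knockdown and 22, 21 and 27 in control libraries (ratio 1.24, 95% interval 0.883 to 1.73). A CCR6-like gene, LOC100708723, chosen after its values were seen, was apart between the groups. It had 16, 12 and 4 reads in knockdown and 0, 0 and 2 in control libraries (ratio 18.0, 95% interval 4.59 to 155). The gene cxcr5, of a chemokine receptor on B cells, had 18, 20 and 27 reads in knockdown and 20, 25 and 17 in control libraries (ratio 1.18, 95% interval 0.819 to 1.70). For ccr6a and cxcr5 a difference within these intervals was not detectable at this depth. The intervals hold counting error only and set no limit on a difference, because they leave out the spread between libraries. With no filter neither gene was called by edgeR (log2 fold change 0.20, SE 0.45, for ccr6a and 0.12, SE 0.48, for cxcr5).

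**Figure D5:**
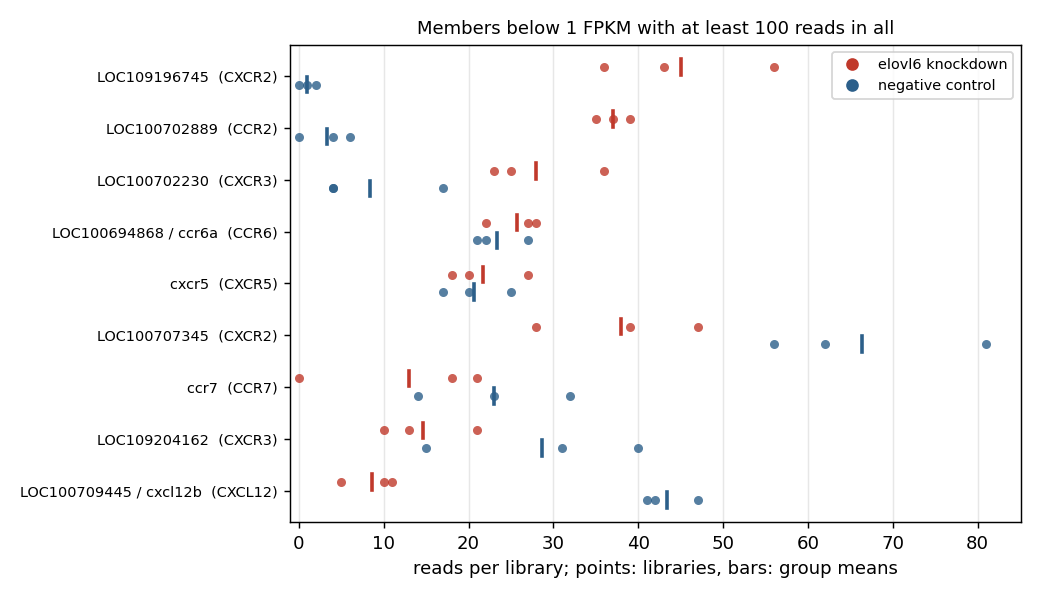
Reads per library of 9 members below 1 FPKM with at least 100 reads in all, knockdown in red above control in blue, with points for libraries and bars for the means of 3 libraries; library totals run from 14341242 to 17245179 reads. LOC109196745 and LOC100702889 are far higher in the knockdown, cxcl12b is far lower, and ccr6a, cxcr5, ccr7 and LOC109204162 overlap.

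The remaining 51 members with reads had 1 to 92 reads each, 21 of them under 10. Relative to the library totals, 31 had more reads in the knockdown and 20 in the control, with 768 reads in knockdown and 440 in control libraries in all.

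Of 9 tested chemokine-related genes that the names above leave out, 7 were higher and 1 lower (median log2 fold change 1.49). Over all tested genes, 39.2% were called higher and 39% lower. Of the 7, cmtm6 and cmtm3 are named for CKLF-like MARVEL transmembrane proteins. However, 4 of the 9 (LOC106098416, cmklr1, LOC100693994 and cmtm3) had a control mean under 1 FPKM and passed the filter only through the knockdown. With no filter, 9 of 38 such genes were called higher and 2 lower, beside 26.5% and 25.9% of all genes. These chemokine-related genes include interleukin-8, or CXCL8, the neutrophil attractant. Its gene il-8 had 4.20, 5.92 and 5.57 FPKM in knockdown and 1.65, 1.88 and 2.002 FPKM in control libraries (log2 fold change 1.49, SE 0.34). A second copy, LOC106098416, had 72 reads in knockdown and 1 in control libraries (ratio 80.9, 95% interval 14.1 to 3241). The gene cmklr1, named for chemokine-like receptor 1, had 6.11, 6.69 and 6.99 FPKM in knockdown and 0.155, 0.268 and 0.447 FPKM in control libraries (log2 fold change 4.47, SE 0.29). Of the other tested genes of that name, LOC100693994 was higher (log2 fold change 2.65, SE 0.45). LOC100699330 averaged 5.48 FPKM in knockdown and 5.39 FPKM in control libraries and was not called (log2 fold change 0.02, SE 0.14, edgeR adjusted p = 0.905). The genes il-8, LOC100699330 and LOC100704474 were chosen after their values were seen. Genes named for eotaxin, a C-C ligand, parted, with LOC100690251 higher (log2 fold change 2.26, SE 0.56) and LOC100704474 lower (-1.40, SE 0.34).

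Genes that carry the receptor signal were mixed. Of 45 tested genes of the list of chemokine receptor signalling, 28 were higher and 10 lower (median log2 fold change 0.68), against 39.2% and 39% of all genes. The filter was passed by 8 of the 45 only through the knockdown and by 1 only through the control. The inhibitory G protein subunit gene gnai3 (LOC100703527) was higher by a log2 fold change of 2.86 (SE 0.36), and so were the genes of actin regulators waslb (LOC100693780, 2.17, SE 0.11) and wasla (LOC100711937, 2.13, SE 0.30). A gene of a G protein gamma subunit, LOC100701095, fell by 4.78 on the log2 scale (SE 0.61). Of these genes, gnai3 and wasla passed the filter only through the knockdown, and LOC100701095 only through the control. In the file's own annotation of chemokine signalling, looked at after the data had been seen and without the members, 55 of 107 tested genes were higher and 31 lower (median 0.30). Of these 107, 14 passed the filter only through the knockdown and 3 only through the control.

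In the NF-kappa-B pathway, through which many chemokine genes are induced in mammals, 20 of 27 tested genes were higher and 3 lower (median log2 fold change 0.95), of which 3 passed the filter only through the knockdown and 2 only through the control. The inhibitor tnfaip3, itself a target of the pathway, averaged 21.1 ± 1.66 FPKM in knockdown and 1.56 ± 0.0487 FPKM in control libraries (SD, n = 3 each). The genes bcl3 (log2 fold change 3.67, SE 0.18), nfkbie (3.38, SE 0.11) and nfkb2 (2.49, SE 0.08) were higher too. Of these, bcl3 passed the filter only through the knockdown. Of 14 tested genes of leukocyte adhesion and transmigration, 7 were higher and 2 lower (median 0.37), and 1 passed the filter only through the knockdown. Over all tested genes, 39.2% were called higher and 39% lower. The integrin alpha-M gene LOC100708437 was higher (log2 fold change 1.91, SE 0.13), and vcam1 was lower (-1.13, SE 0.22).

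Markers of granulocytes and macrophages are given beside the pan-leukocyte list, in which 1 of the 13 tested genes passed the filter only through the knockdown. The 10 tested granulocyte markers were higher, beside 39.2% of all tested genes, but 5 of them passed only through the knockdown. With no filter 10 of 15 granulocyte markers were called higher and none lower, beside 26.5% and 25.9% of all genes. Over the whole list the sums were 114 to 117 FPKM in knockdown and 63.2 to 63.9 FPKM in control libraries. Of 19 tested macrophage and dendritic cell markers 15 were higher and 4 lower, 5 having passed only through the knockdown, with sums of 1093 to 1101 FPKM in knockdown and 890 to 910 FPKM in control libraries. Examples are csf3r (log2 fold change 3.53, SE 0.17), mmp9 (2.93, SE 0.12), marco (2.85, SE 0.28) and the macrophage growth factor receptor copy LOC100710555 (4.17, SE 0.13). Of these, csf3r, marco and LOC100710555 passed the filter only through the knockdown. A gene named for the scavenger receptor M130, LOC100708849, fell by 3.01 on the log2 scale (SE 0.04). It averaged 53.3 ± 3.41 FPKM in knockdown and 428 ± 13.1 FPKM in control libraries (SD, n = 3 each). This gene thus made up a large part of the control sum of the macrophage and dendritic cell list, and a small part of the knockdown sum. No read fell on timd4 (LOC100694641), lcp2b (LOC102082791) or on 2 of the 3 genes named for CD45, LOC102077787 and LOC112842638, and the CD45-named gene LOC102078539 had 5 reads in knockdown and 2 in control libraries.

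Lymphocyte markers were few. Their counts of tested genes stand beside 39.2% of all tested genes called higher and 39% called lower. Of 96 genes found for T and NK cells 5 were tested, 4 higher and 1 lower, and 28 had no read, with sums of 1078 to 1120 FPKM in knockdown and 683 to 712 FPKM in control libraries. Perforin-1 gene LOC106096846, at 822 ± 18.5 FPKM in knockdown and 518 ± 13.7 FPKM in control libraries (SD, n = 3 each), made up most of that. Of the other tested genes, cd8a (LOC100709685, log2 fold change 2.01, SE 0.09) and the granzyme gene LOC100701205 (4.44, SE 0.20) were higher. The gene rorc (LOC100700925, -2.35, SE 0.32) was lower, and it passed the filter only through the control. Below the filter, the T cell gene cd3e had 29 reads in knockdown and 45 in control libraries. Of 42 B and plasma cell genes 6 were tested, all higher, of which 2 passed only through the knockdown. The list summed to 627 to 634 FPKM in knockdown and 436 to 449 FPKM in control libraries. Of the tested genes, LOC100696571, LOC102080925, blnk and btk averaged 3.28, 8.89, 2.10 and 4.11 FPKM in knockdown libraries. Their control means were 0.206, 1.38, 0.373 and 1.97 FPKM, so nearly all of both sums came from other genes of the list. Below the filter, cd79a had 30 reads in knockdown and 79 in control libraries, and pax5 had 24 in knockdown and 90 in control libraries. The genes cd3e, cd79a and pax5 were chosen after their values were seen. With no filter on low values, 10 of 34 B and plasma cell genes were called higher and 5 lower. Of 68 T and NK cell genes, 11 were called higher and 8 lower. Over all genes in that fit, 26.5% were called higher and 25.9% lower. The part of cell numbers of any kind in the chemokine levels was not tested.

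Other cell types also differed between the groups. Their counts stand beside 39.2% of all tested genes called higher and 39% called lower. Endothelial and stellate cell markers were higher in 13 of 16 tested genes and lower in 1, with sums of 143 to 149 FPKM in knockdown and 73.5 to 76.5 FPKM in control libraries. Thrombocyte markers were higher in 5 of 9 and lower in 2, with sums of 44.97 to 46.4 FPKM in knockdown and 27.6 to 31.8 FPKM in control libraries. Red blood cell markers were lower in 13 of 15 tested genes, with sums of 2624 to 2848 FPKM in knockdown and 17182 to 17779 FPKM in control libraries. Exocrine pancreas markers were lower in 18 of 20, with sums of 204 to 342 FPKM in knockdown and 36935 to 37842 FPKM in control libraries. The hepatocyte list was higher in 10 and lower in 13 of 24 tested genes. Only through the knockdown, the filter was passed by 2 endothelial and stellate cell genes, 1 thrombocyte gene and 2 pancreas genes. Only through the control, it was passed by 2 red blood cell genes and 3 pancreas genes. The part of these cell types in the chemokine differences was not tested either.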

How the data were processed

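Poly(A) RNA of livers was sequenced from both ends (150 bp each). The submitters' processing notes name cutadapt 1.9 and HISAT, with no counting program, strand setting or genome build. The deposited table held the authors' read counts and FPKM of 29528 genes. These FPKM were, in the authors' table, the count over the product of gene length and library total, in 100% of values within a relative tolerance of 1e-05. Starts and ends of all 109 members equalled those of NCBI's O_niloticus_UMD_NMBU table, which gave linkage groups and symbols; other coordinates are the file's.

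The test took the 11431 genes whose FPKM averaged 1 or more, with edgeR 4.0.16 (R 4.3.3) by the quasi-likelihood test on deposited counts, TMM scaling, no covariate, both groups, Benjamini-Hochberg adjustment over all tested genes and an adjusted p threshold of 0.05. The fit was tested on simulated data. SE is the size of the log2 fold change divided by the root of F. Log2 fold changes are knockdown over control. Ratios of reads per library total have Clopper-Pearson 95% intervals, and the bound for a gene with no read in a group is the end of that interval. Neighbouring copies within 500 kb were summed, an alternative chosen after seeing the data. All tested members were named, with those below the filter at 100 reads or more except 1 tested receptor gene and 1 below the filter, which are counted but not reported here, and up to 4 called genes of each other list. Other lists were matched by file name, NCBI symbol or product name, which disagree for some genes. Members and lists were chosen with earlier results of these data known. The common biological coefficient of variation was 9.40%. Alternatives used DESeq2 1.42.0, limma 3.58.1 on log2(FPKM + 1) and log2(FPKM + 0.1), other scalings and filters, a replicate block and single libraries left out.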

Additional observations from a re-analysis of the deposited data

How the results depend on the processing

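Of 305 values of 21 tested members under alternatives, 302 kept their direction and their side of the threshold, and no called member lost its call. The exceptions were ackr3a and ackr3b, given with their values above. With a minimum mean FPKM of 5, 8 of 8 tested ligand genes, 2 of 3 receptor genes and 4662 of all 5469 genes (85.2%) were called. Called receptor genes numbered 18 without a filter and 12 with filterByExpr, where more genes were tested. In these fits 19 and 18 adhesion genes, 19 and 14 T and NK cell genes and 15 and 13 B and plasma cell genes were called. Over all genes the shares called in the same fits were 52.4% and 72.8%. Leaving out a library gave 13 ligand genes each time and 6 to 7 receptor genes, with 7 reached without control library 1.

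Libraries with the same number did not deviate together (correlation of deviations 0.0011, 0.0067 and 0.0017 for numbers 1, 2 and 3), so the numbers were not taken as pairs. With the replicate number as a block, 13 ligand genes, 6 receptor genes and 8858 of all genes were called, and elovl6 had a log2 fold change of -2.11. Few reads limit the members below 1 FPKM.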
